A study of Mus musculus with 8 samples.

Results

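The 9 genes described here belong to the bone morphogenetic protein (BMP) pathway of mouse small intestinal organoids. They are the ligands Bmp2 and Bmp4, the receptor Bmpr1a, the pseudoreceptor Bambi, the inhibitory SMADs Smad6 and Smad7, and the target genes Id1, Id2 and Id3. Members were the array's probes whose accession maps to one of these symbols, which gave 13 probes and 40 spots on each array, and all 9 genes were among the 19255 genes tested. Intestinal organoids are epithelial cultures with crypt-like buds, grown in Matrigel. The arrays held RNA from 2 independently established wild-type organoid lines after 6 days with CHIR99021 (3 µM), with valproic acid (VPA, 1 mM), with the 2 compounds together at these doses, or in control medium. CHIR99021 inhibits the kinase GSK3 and thereby activates Wnt/beta-catenin signalling, and VPA inhibits histone deacetylases. Each of the 4 groups had 2 arrays, 1 per line, so the groups share both lines. Each array carried the sample in Cy5 and control RNA of the same line in Cy3, with no dye swap, and the control arrays set control against control. Organoids of this kind are epithelium without the stroma that surrounds crypts in the animal, and the sources used here do not give the composition of the medium.

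BMP ligands bind pairs of type I and type II receptor kinases, the type I receptors phosphorylate SMAD1, SMAD5 and SMAD9, and these enter the nucleus with SMAD4 and switch on target genes. The Id genes are among the best known of these targets, and their products hold back basic helix-loop-helix transcription factors by binding their E protein partners. Smad6, Smad7 and Bambi dampen the signal and are themselves induced by it. In the intestine BMP signalling is strongest in the villus and is held low at the crypt base by secreted inhibitors such as Noggin, and loss of Bmpr1a in mice leads to extra crypts and polyps.

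The values below are log2 ratios of Cy5 over Cy3 per array, and a log2 fold change is the difference between the mean ratios of 2 groups. Between 60.57% and 64.57% of spots were well above background in Cy5 on the 8 arrays, and no spot was saturated. All 9 epithelial markers were well above background on every array. Of these, 1 fell with CHIR99021 (Krt8, -0.75), 3 with VPA and 4 with both compounds, where 1.12%, 10.9% and 15.5% of all genes were called. With both compounds Krt8 (-1.01), Krt19 (-0.78), Krt18 (-0.71) and Cdx1 (-0.50) fell and Cdh1 rose (0.51). None of 5 endothelial markers was above background on any array, and Dcn and Lum, which mark fibroblasts, were not above background on any array either. Of 10 mesenchymal markers 4 to 8 were above background per array. Their summed Cy5 level in the 2 lines was 9266 and 10003 in CHIR99021 organoids, 7714 and 9215 in VPA organoids, 11661 and 13596 under both compounds, and 7863 and 10102 in control. Of the 7 mesenchymal markers tested, 1 was called against control with VPA and with both compounds, the collagen gene Col1a1. Col1a1 was above background on 4 of 8 arrays and entered the test through the groups where it is high. Its fitted log2 fold changes of 0.79 and 1.01 are therefore given as a description. Vim, of intermediate filaments, differed with both compounds by 1.44 in line 1 and 4.25 in line 2 without passing. The other tested markers of the list did not pass there either. Pdgfra differed by 0.49, Acta2 by 0.22, Des by 0.06, Col1a2 by -0.10 and Pdgfrb by -0.60. Of these, Pdgfra and Des were above background on 3 and 2 of 8 arrays. Of 6 immune markers 2 to 6 were above background, with summed levels of 569 to 751 over the arrays. The summed level of 10 absorptive enterocyte markers was 76308 and 75302 in CHIR99021 organoids, 228351 and 216205 in VPA organoids, 39080 and 46280 under both compounds, and 195548 and 226774 in control. Of these 10 markers 4 fell with CHIR99021, 3 with VPA and 7 with both compounds. Of all genes, 1.01%, 4.27% and 7.09% were called lower there, and none of the 10 markers rose. With VPA the members moved apart, since Apoa1 (-1.87), Slc6a19 (-1.35) and Treh (-0.95) fell while the difference of Fabp1 was 2.16 and did not pass (adjusted p = 0.07094). The part of these cell type markers in the results below was not tested, and fewer cells of a type cannot be told apart from less RNA per cell.

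Id2 was higher in all 3 treatments than in control, and it was the only one of the 9 genes to pass the test against control. It rose 1.56-fold with CHIR99021, 1.43-fold with VPA and 2.08-fold with both compounds. Smad6 was 1.55-fold higher with both compounds than with CHIR99021 alone and passed the test there, as did Id2. Id1 and Id3 were highest in organoids given VPA or both compounds, without passing the test against control, and no member fell in any comparison. The share of members called was 1 of 9 for CHIR99021, where 1.12% of all genes were called. It was 1 of 9 for VPA, where 10.9% of all genes were called, and 1 of 9 for both compounds, where 15.5% were called. The counts for VPA and for both compounds are therefore near the share of all genes. Of all genes, CHIR99021 gave 0.114% called higher and 1.01% lower. VPA gave 6.58% higher and 4.27% lower, and both compounds gave 8.43% higher and 7.09% lower. With line as a replicate block, 1, 4 and 3 members were called with CHIR99021, VPA and both compounds, where 2.89%, 19.4% and 25% of all genes were called.

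The median log2 fold change of the 9 members was 0.01 with CHIR99021, 0.46 with VPA and 0.29 with both compounds, while the median over all genes tested was between -0.00041 and 0.01. At an unadjusted p under 0.05, 1 member passed for CHIR99021, 4 for VPA and 4 for both compounds, where 12.8%, 26% and 29.6% of all genes did. The arrays of treated and control organoids did not overlap for 4 members with CHIR99021, 8 with VPA and 8 with both compounds. Over all genes the arrays did not overlap in 51.9%, 57.4% and 60% of genes in these comparisons.

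**Figure D1:**
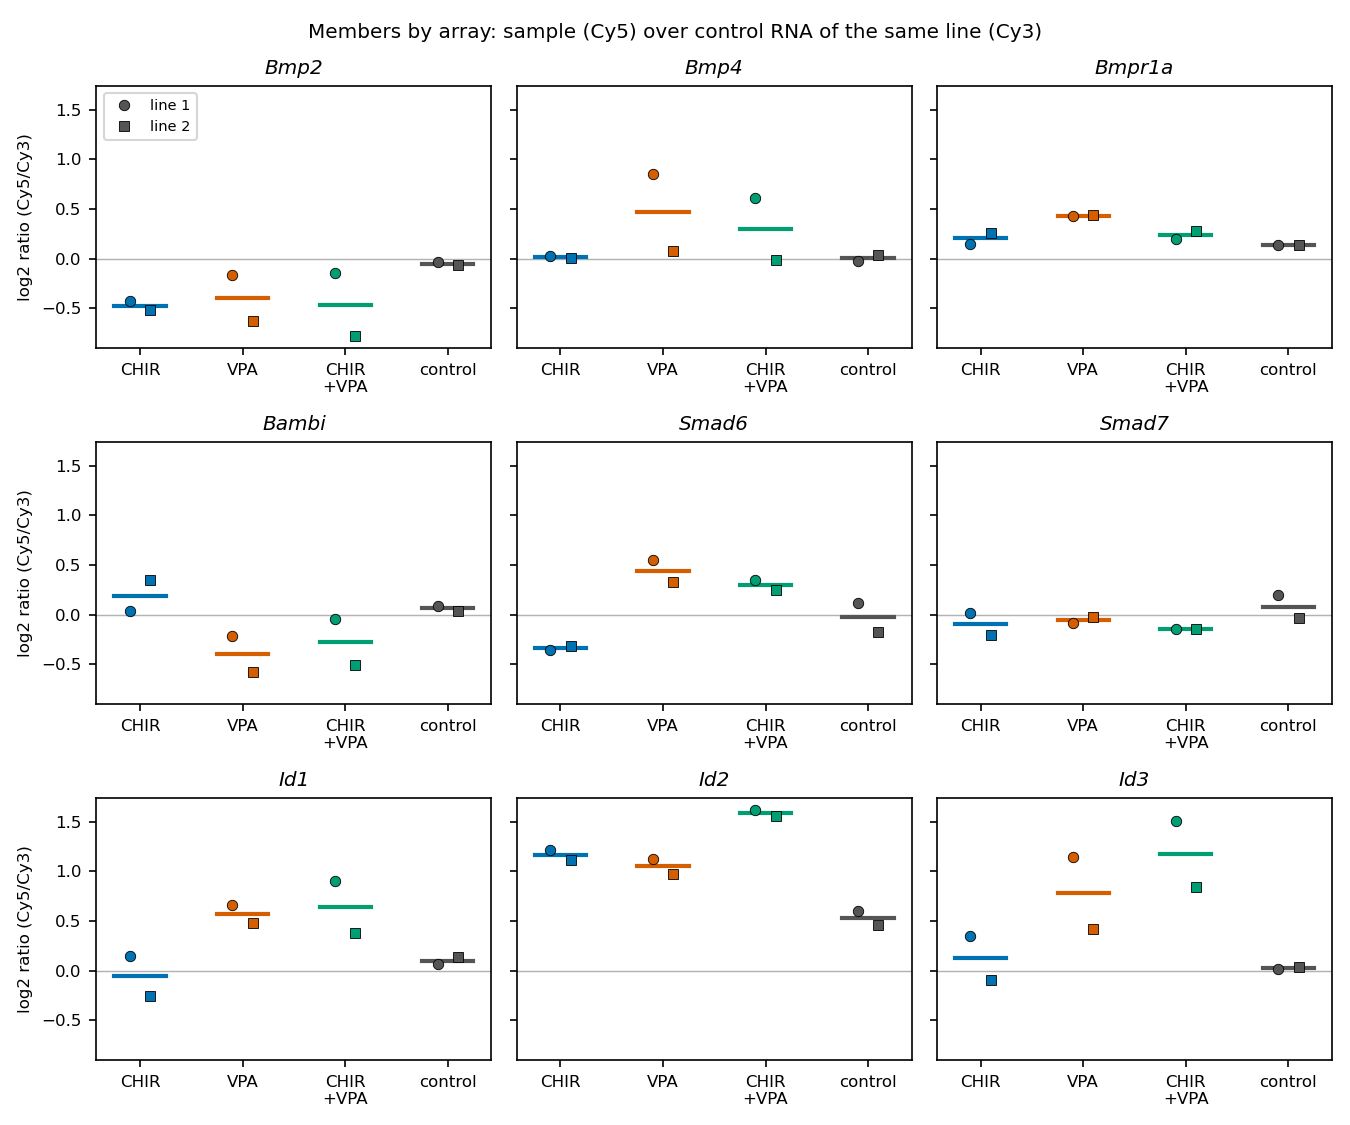
Log2 ratio of the sample (Cy5) over control RNA of the same line (Cy3) for the 9 genes, with circles for line 1, squares for line 2 and bars for the group mean. Id2 lies at 1.56 and 1.62 with both compounds, above every other group, and between 0.46 and 0.60 in control. Bmp2, Bmp4, Bambi, Id1 and Id3 show lines that lie far apart within a group.

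Promoter sequence is shown for the 3 members that the results turn on, Id2, Id3 and Smad6. BMP SMADs act on target genes through short DNA elements, and elements outside the 250 bases shown were not searched. Each line gives the 250 bases before the annotated start, 5′ to 3′ on the strand of the gene, from RefSeq on GRCm38.p6. These are chr12:25096093-25096342 on the minus strand for Id2, chr4:136143572-136143821 on the plus strand for Id3, and chr9:64022060-64022309 on the minus strand for Smad6. Capitals mark matches to GGCGCC, a GC-rich BMP SMAD element, and to CAGAC, the SMAD box, which reads GTCTG where it lies on the opposite strand.
Id2 promoter: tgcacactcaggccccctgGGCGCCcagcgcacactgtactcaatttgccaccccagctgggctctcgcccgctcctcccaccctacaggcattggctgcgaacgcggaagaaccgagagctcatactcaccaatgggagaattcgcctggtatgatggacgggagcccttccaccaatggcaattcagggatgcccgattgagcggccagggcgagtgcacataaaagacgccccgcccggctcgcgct
Id3 promoter: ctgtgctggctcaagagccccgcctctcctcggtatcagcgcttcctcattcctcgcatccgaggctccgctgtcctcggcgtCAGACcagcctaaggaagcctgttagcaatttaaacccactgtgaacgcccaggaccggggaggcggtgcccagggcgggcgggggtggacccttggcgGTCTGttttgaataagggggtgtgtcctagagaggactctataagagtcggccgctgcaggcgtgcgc
Smad6 promoter: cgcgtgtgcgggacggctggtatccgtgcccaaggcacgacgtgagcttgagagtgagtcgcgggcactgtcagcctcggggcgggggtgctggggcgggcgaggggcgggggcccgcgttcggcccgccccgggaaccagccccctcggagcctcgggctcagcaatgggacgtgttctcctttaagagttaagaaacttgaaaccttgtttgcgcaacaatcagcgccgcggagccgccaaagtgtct
The Id2 stretch holds 1 GGCGCC whose first base is at -231 from the start, and the Id3 stretch holds 2 SMAD boxes, at -167 and -68. The Smad6 stretch holds neither. Over both strands, 9.59% of 32841 RefSeq promoter stretches of the same length hold GGCGCC and 42.2% hold CAGAC. The elements CTTTGAT and CTTTGAA, bound by the TCF/LEF factors of Wnt signalling, were in none of the 3 stretches, and they occur in 3.21% and 4.45% of promoters. No motif overlapped another. Of the 9 members 5 were in the promoter table, and Bmpr1a also held 1 GGCGCC, at -198, while Bmp4 held none of the 4 motifs. A match is a description of the letters and does not show that a factor binds.

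Bmp2 encodes a BMP ligand. Its log2 ratios in line 1 and line 2 were -0.43 and -0.52 with CHIR99021, -0.17 and -0.63 with VPA, -0.15 and -0.78 with both compounds, and -0.03 and -0.07 in control. All 6 treated arrays lay below both control arrays, and with VPA and with both compounds the line 2 array was the lower one. The log2 fold changes of -0.43, -0.35 and -0.41 (SE 0.23 each) did not pass the test, with adjusted p-values of 0.5193, 0.4007 and 0.2911. Bmp2 was dim, at 31 to 130 brightness units over local background in Cy5, and on the line 2 array with both compounds 4 of its 10 spots were well above background. The ratios include an offset of 50 in both dyes, which shrinks differences of such dim genes. In the ratio computed by the array software, which has no offset, the differences were -1.09, -1.15 and -1.33, with adjusted p-values of 0.6456, 0.4119 and 0.3193.

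Bmp4 encodes the ligand that stromal cells near the crypt are known to make in the animal. Log2 ratios of Bmp4 were 0.02 and 0.01 with CHIR99021, 0.85 and 0.08 with VPA, 0.61 and -0.01 with both compounds, and -0.03 and 0.04 in control. The line 1 arrays with VPA and with both compounds stood apart, while the line 2 arrays lay beside control. Its differences from control were 0.01 with CHIR99021 (adjusted p = 0.9941), 0.46 with VPA (adjusted p = 0.3694) and 0.29 with both compounds (adjusted p = 0.5624), with an SE of 0.28 each. The 95% interval of the VPA difference ran from -0.22 to 1.14. Bmp4 was dim as well, and the software's ratio without the offset gave 1.09 with VPA (adjusted p = 0.3694) and 0.69 with both compounds (adjusted p = 0.5548).

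Bmp2, Bmp4 and Bambi were each read by a probe printed 10 times per array, so the spread between spots can be set beside the spread between lines. The SD of the log2 ratio between spots of 1 array was 0.048 to 0.126 for Bmp2, 0.057 to 0.165 for Bmp4 and 0.052 to 0.087 for Bambi. For Bmp4 with VPA, the group in which its lines lay farthest apart, the lines differed by 0.77 and the spots had an SD of 0.158 in line 1 and 0.082 in line 2. With CHIR99021 the lines differed by 0.013 and the spots had an SD of 0.094 and 0.139. The spread between spots is technical, and the spots of 1 array are not replicates of the treatment.

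**Figure D2:**
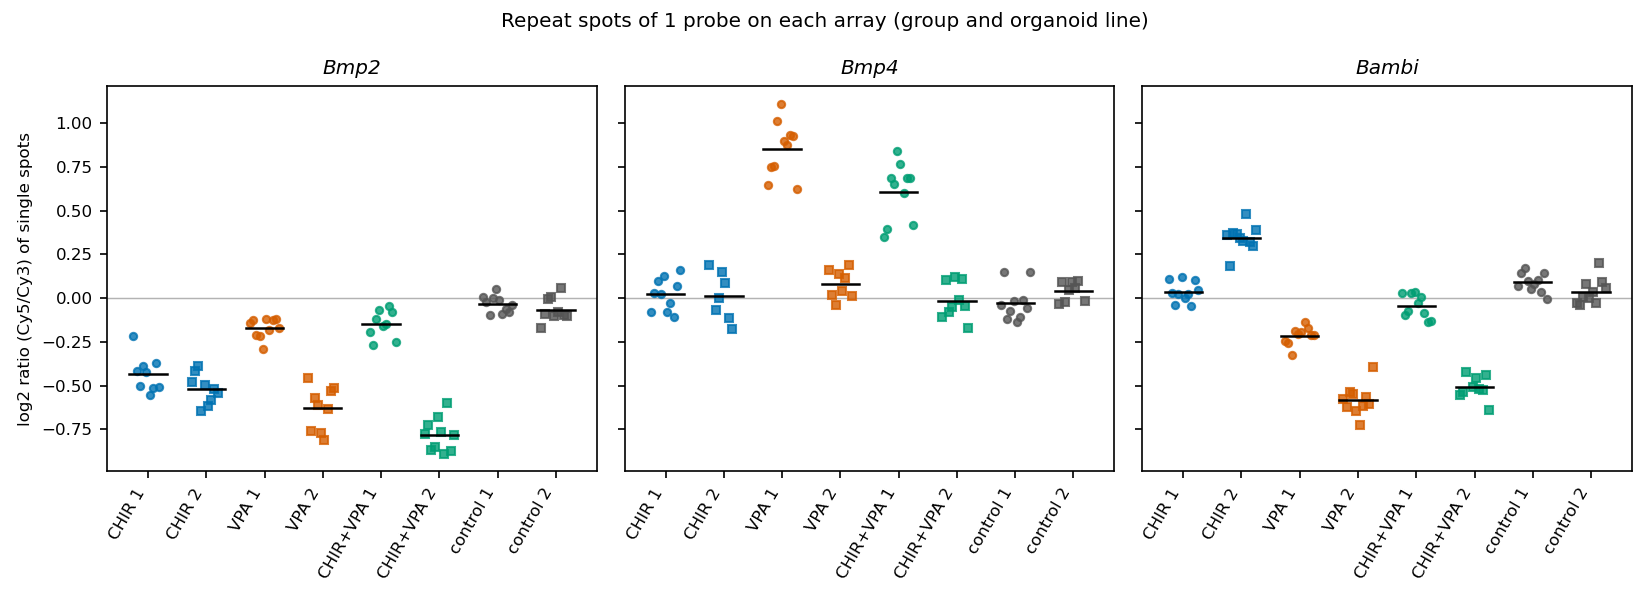
Log2 ratio of each repeat spot of the Bmp2, Bmp4 and Bambi probes on the 8 arrays, with circles for line 1, squares for line 2 and black bars for the array mean. The Bmp4 spots of line 1 with VPA centre on 0.85 and those of line 2 on 0.08, and the Bambi spots lie lower in line 2 than in line 1 with VPA and with both compounds.

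Bmpr1a encodes a type I BMP receptor. Its log2 ratios were 0.15 and 0.26 with CHIR99021, 0.43 and 0.44 with VPA, 0.20 and 0.27 with both compounds, and 0.13 and 0.14 in control. The VPA arrays were the highest and did not overlap any other group. The difference of 0.30 ± 0.087 (SE) between VPA and control did not pass the test (adjusted p = 0.07886) and passed with line as a replicate block (adjusted p = 0.04954). A dimmer second probe of Bmpr1a gave -0.06 for VPA against control, so the probes disagreed. With CHIR99021 and with both compounds Bmpr1a differed from control by 0.07 and 0.10.

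Bambi encodes a receptor-like protein without a kinase domain that blocks BMP and TGF-beta receptors, and it is also known as a Wnt target in human cells. Bambi had log2 ratios of 0.04 and 0.34 with CHIR99021, -0.21 and -0.58 with VPA, -0.05 and -0.51 with both compounds, and 0.09 and 0.04 in control. The 4 arrays with VPA were below all 4 arrays without it. The differences from control were 0.13 with CHIR99021 (adjusted p = 0.8751), -0.46 with VPA (adjusted p = 0.2038) and -0.34 with both compounds (adjusted p = 0.3169), with an SE of 0.20 each, and none passed. The software's ratio gave larger Bambi differences of -0.97 with VPA (adjusted p = 0.2586) and -0.70 with both compounds (adjusted p = 0.3809). A second probe was not well above background on any array.

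Smad6 encodes an inhibitory SMAD that acts mainly on the BMP branch. For Smad6 the log2 ratios were -0.36 and -0.32 with CHIR99021, 0.55 and 0.32 with VPA, 0.35 and 0.25 with both compounds, and 0.11 and -0.17 in control. The CHIR99021 arrays were below control in both lines and the arrays with VPA were above it, and the 3 ranges did not overlap. Against control, the differences were -0.31 with CHIR99021 (adjusted p = 0.3961), 0.47 with VPA (adjusted p = 0.07111) and 0.33 with both compounds (adjusted p = 0.149), with an SE of 0.13 each. With the line as a replicate block the VPA difference passed (adjusted p = 0.02637).

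Set against CHIR99021 alone, Smad6 rose by 0.64 ± 0.13 (SE) with both compounds (95% interval 0.33 to 0.95, adjusted p = 0.03094), by 0.70 in line 1 and 0.57 in line 2. In that comparison 2 of the 9 members were called, Smad6 and Id2, where 10% of all genes were called (6.21% higher and 3.81% lower). With line as a replicate block 4 members were called, where 17.7% of all genes were. The arrays of the 2 groups did not overlap for 5 members, and for 51.5% of all genes. The Smad6 call was lost when either control array was left out (0.64, adjusted p = 0.05434), when a CHIR99021 array was left out (0.62 and 0.65, lowest adjusted p = 0.1455) and when an array with both compounds was left out (0.59 and 0.69, lowest adjusted p = 0.05529). Over all alternatives it held in 10 of 19. It was also lost when the background model was fitted on all spots (0.47, adjusted p = 0.1121), with the outlier flags of the spot alone (0.48, adjusted p = 0.108) and when only these groups entered the fit (0.64, adjusted p = 0.07163), and the software's ratio gave 0.98 for Smad6 (adjusted p = 0.03747).

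Smad7 encodes an inhibitory SMAD that acts on both the BMP and the TGF-beta branch. The Smad7 ratios were 0.01 and -0.21 with CHIR99021, -0.09 and -0.02 with VPA, -0.14 and -0.15 with both compounds, and 0.20 and -0.03 in control. Treated and control arrays overlapped in the CHIR99021 and VPA groups, and those with both compounds lay below control. Its differences from control were -0.18, -0.13 and -0.23 (SE 0.12 each), the lowest adjusted p was 0.2663, and the 95% interval with both compounds ran from -0.51 to 0.06.

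Id2 encodes an inhibitor of basic helix-loop-helix factors that is present in many epithelia. Its log2 ratios in line 1 and line 2 were 1.22 and 1.12 with CHIR99021, 1.12 and 0.98 with VPA, 1.62 and 1.56 with both compounds, and 0.60 and 0.46 in control. The ratio was above 0 also where control RNA stood in both dyes, and the comparison with control subtracts that part. In order, both compounds stood highest, then CHIR99021, VPA and control, and only the CHIR99021 and VPA arrays overlapped.

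With both compounds Id2 rose by 1.06 ± 0.10 (SE) over control (95% interval 0.82 to 1.30, adjusted p = 0.001895), by 1.02 in line 1 and 1.1 in line 2. A second Id2 probe gave 1.05. With CHIR99021 it rose by 0.64 ± 0.10 (adjusted p = 0.04784), by 0.62 and 0.66 in the 2 lines, and the second probe gave 0.76. With VPA it rose by 0.52 ± 0.10 (adjusted p = 0.02612), by 0.52 in either line, and the second probe gave 0.43. The rises in line 1 and line 2 lay close together in each of the 3 treatments. Set against 0 in place of the control arrays, the Id2 ratios were 1.17 with CHIR99021, 1.05 with VPA and 1.59 with both compounds.

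The Id2 call with both compounds held in all 20 alternative settings, at 0.99 to 1.59. The CHIR99021 call lay close to the threshold: the difference was 0.53 to 1.17 over the 20 alternatives, and it passed in 5 of them. It was lost without any 1 of the 8 arrays, with adjusted p-values of 0.05155 without a VPA array, 0.05781 without an array with both compounds, 0.2747 and 0.2343 without the line 1 and line 2 CHIR99021 array, and 0.344 and 0.4401 without the line 1 and line 2 control array, and the Id2 difference then lay between 0.57 and 0.71. The handling of spots marked as outliers also decided it, since it was lost when the background model used all spots (0.53, adjusted p = 0.323) and under both other choices of marked spots (0.56 and 0.64, adjusted p-values of 0.2611 and 0.05045). The VPA call of Id2 held in 10 of 20 alternatives. It was lost without a control array (0.59 and 0.45), without a VPA array (0.45 and 0.59) and without a CHIR99021 array (0.52). It was also lost with median centring, the mean of all probes, the variance trend with robust fitting, and only the compared groups in the fit.

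Id3 encodes a close relative of Id1 with the same way of acting. The Id3 ratios were 0.35 and -0.09 with CHIR99021, 1.15 and 0.42 with VPA, 1.51 and 0.84 with both compounds, and 0.02 and 0.04 in control. The 4 arrays with VPA were above the 4 without it, and line 1 was above line 2 in each treatment. With both compounds the mean difference from control was 1.15 ± 0.31 (SE) or 2.21-fold, with 1.49 in line 1 and 0.80 in line 2, and it did not pass (adjusted p = 0.05034). Differences with VPA and CHIR99021 were 0.76 (adjusted p = 0.1792) and 0.10 (adjusted p = 0.9446). With the line as a replicate block, Id3 passed with both compounds (adjusted p = 0.006316) and with VPA (adjusted p = 0.03286). Over all alternatives, Id3 passed with both compounds in 10 of 19.

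Id1 encodes an Id protein that is a standard readout of BMP signalling in many cell types. Its log2 ratios were 0.15 and -0.26 with CHIR99021, 0.66 and 0.48 with VPA, 0.90 and 0.38 with both compounds, and 0.06 and 0.13 in control. As with Id3, the arrays with VPA were above those without it, and CHIR99021 arrays lay on both sides of control. The differences from control were -0.15 with CHIR99021 (adjusted p = 0.8497), 0.47 with VPA (adjusted p = 0.2099) and 0.54 with both compounds (adjusted p = 0.131), with an SE of 0.20 each. With the line as a replicate block the difference with both compounds passed (adjusted p = 0.04111). A second Id1 probe gave -0.20, 0.46 and 0.37, and on the line 2 array with both compounds it was not well above background in Cy3. Id4, the remaining Id gene, was well above background in Cy5 on 2 of 8 arrays and was not tested.

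**Figure D3:**
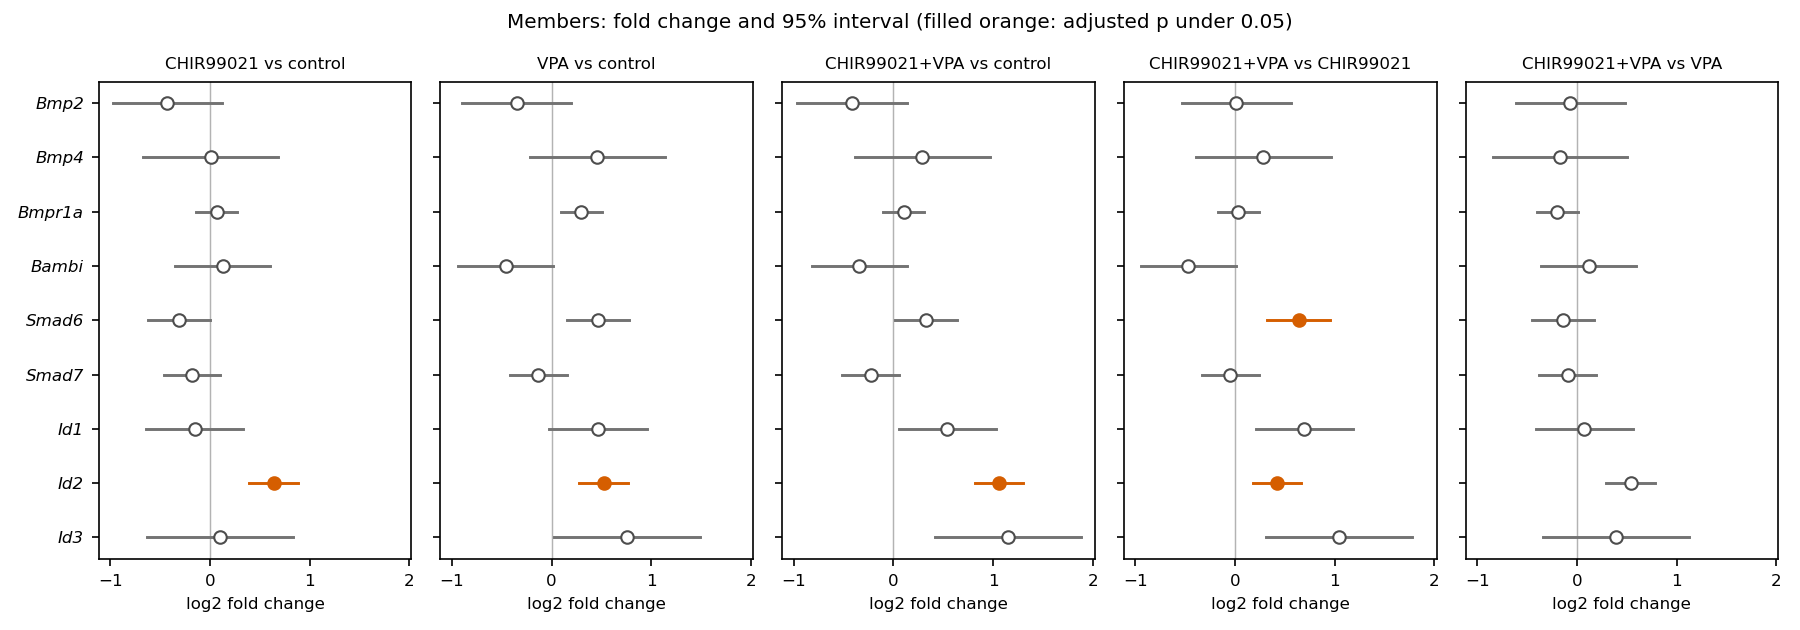
Log2 fold change (point) and 95% interval (bar) of the 9 genes in 5 comparisons, with an adjusted p under 0.05 in filled orange. Id2 is filled against control in all 3 treatments, Id2 and Smad6 are filled for both compounds against CHIR99021 alone, and the intervals of Id3 and Bmp4 are the widest.

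With VPA added to CHIR99021, Id2 rose over CHIR99021 alone, as Smad6 did. The Id2 difference was 0.42 ± 0.10 (SE, adjusted p = 0.04971), with 0.40 in line 1 and 0.44 in line 2. Over all alternatives the Id2 call held in 5 of 19. That call was lost without any 1 of the 8 arrays, at 0.37 to 0.47 with adjusted p-values of 0.05139 to 0.2427. Without the line 1 or line 2 CHIR99021 array the adjusted p for Id2 was 0.149 or 0.2427, and without the line 1 or line 2 array with both compounds it was 0.1761 or 0.08587. Without either control array it was 0.103, and without either VPA array it was 0.05139. Id3 and Id1 were higher by 1.04 ± 0.31 (adjusted p = 0.08451) and 0.69 ± 0.20 (adjusted p = 0.08507), in both lines, and did not pass. With the line as a replicate block they did, with adjusted p-values of 0.01307 for Id3 and 0.02467 for Id1.

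Adding CHIR99021 to VPA gave 0 calls among the 9 members, where 1.12% of all genes were called (0.0883% higher and 1.03% lower), and 1 member had an unadjusted p under 0.05 in limma, as 14.1% of all genes did. With line as a replicate block 1 member was called, where 3.18% of all genes were. The arrays did not overlap for 3 members, and for 36.4% of all genes. That member was Id2, which was higher with both compounds than with VPA alone by 0.54 ± 0.10 (SE), the lines giving 0.49 and 0.58 (adjusted p = 0.07307), and which passed with the line as a replicate block (adjusted p = 0.02631). Bmpr1a differed by -0.20 (adjusted p = 0.3833), and the other 7 members differed by -0.17 to 0.39.

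The interaction asks whether VPA had the same effect with and without CHIR99021. No member and no gene among all 19255 passed (0% called), while 0 members and 511 genes had an unadjusted p under 0.05 in limma. For Id2 the interaction was -0.10 (95% interval -0.45 to 0.24), and for Id3 it was 0.29 (95% interval -0.75 to 1.32). Both intervals include 0 and reach further for Id3 than for Id2.

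The other genes of the pathway were taken from 7 lists with 84 genes, of which 82 had a probe and 57 were tested. With CHIR99021 none of the 57 passed (0%, beside 1.12% of all genes). In limma 5 of the 57 had an unadjusted p under 0.05, as did 12.8% of all genes. With VPA 3 rose and 2 fell (8.77%, beside 10.9% of all genes), and with both compounds 7 rose and 4 fell (19.3%, beside 15.5%). With the line as a replicate block the calls numbered 2, 14 and 22 (3.51%, 24.6% and 38.6%), where 2.89%, 19.4% and 25% of all genes were called. Leaving out 1 array left 1 array in its group, so counts of calls are not given for those fits. Without either control array, fewer of all genes were called with VPA and with both compounds. Of the calls against control named below, only that of Rgma with both compounds held without either control array.

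Of 8 further BMP and GDF ligands tested, none was called with CHIR99021 and 1 with VPA, while 3 rose and 1 fell with both compounds, where 15.5% of all genes were called. Bmp3, known as an antagonist within the BMP family, had log2 ratios of -0.97 and -0.69 with CHIR99021, -3.15 and -1.35 with VPA, -3.84 and -2.44 with both compounds, and 0.14 and 0.20 in control. Every treated array was below both control arrays, and line 1 was below line 2 in each treatment. With both compounds Bmp3 fell by 3.31 ± 0.63 (SE) on the log2 scale (adjusted p = 0.01709), and its lines gave -3.98 and -2.63, while the differences with VPA (-2.42, adjusted p = 0.05845) and CHIR99021 (-1.0, adjusted p = 0.6017) did not pass. The Bmp3 call was lost without the line 1 array with both compounds (-2.61, adjusted p = 0.06522) and without either control array (-3.33 and -3.28, adjusted p-values of 0.1132 and 0.1131).

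Bmp7, a ligand made by many epithelia, had log2 ratios of 0.68 and 0.69 with CHIR99021, 0.80 and 0.52 with VPA, 0.87 and 0.97 with both compounds, and 0.24 and 0.27 in control. Treated arrays were above control arrays throughout. It rose by 0.66 ± 0.11 (SE) with both compounds (adjusted p = 0.01153), a second probe gave 0.68, and the call was lost without either control array (0.65 and 0.68). Bmp8a rose with VPA (0.45, adjusted p = 0.02294) and with both compounds (0.35), and Gdf11 rose with both compounds (0.43, adjusted p = 0.0351), where 1 of the 2 control arrays of Gdf11 was well above background.

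Among 7 receptors and co-receptors, Rgma was the only call against control. It was called with VPA and with both compounds (14.3% of the list), where 10.9% and 15.5% of all genes were called. Rgma encodes a membrane-anchored BMP co-receptor. Its log2 ratios were -0.30 and -0.29 with CHIR99021, 1.41 and 1.78 with VPA, 1.42 and 1.55 with both compounds, and 0.31 and 0.32 in control. The VPA arrays were far above control and the CHIR99021 arrays below it. Rgma rose by 1.28 ± 0.13 (SE) with VPA (adjusted p = 0.004073) and by 1.17 with both compounds (adjusted p = 0.003186), and its difference with CHIR99021 was -0.61 (adjusted p = 0.1087). The call with both compounds held without each array in turn, and the VPA call was lost without either control array (1.28 and 1.29, adjusted p-values of 0.06308 and 0.0562).

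Of 12 SMADs and their regulators, Ppm1a, a phosphatase reported to act on phosphorylated SMADs, fell by 0.75 with both compounds (adjusted p = 0.007141), and a second probe gave -0.32. The 10 secreted inhibitors and modulators tested gave 0 calls in the 6 comparisons with limma, where 0% to 15.5% of all genes were called. With both compounds against control, 2 of the 10 had an unadjusted p under 0.05 in limma, as did 29.6% of all genes. No comparison had more. In the TGF-beta and activin branch, 13 genes were tested. The ligand Tgfb1 rose by 0.87 with VPA (adjusted p = 0.01222) and by 0.85 with both compounds (adjusted p = 0.008479), and Smad2 fell by 0.36 with both (adjusted p = 0.049), a call that held in 5 of 20 alternatives. Both Tgfb1 calls were lost without either control array, at 0.83 to 0.89.

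Of 4 other BMP-responsive genes tested, Hes1 fell with VPA (by 0.66, adjusted p = 0.02826) and with both compounds (by 0.67, adjusted p = 0.01976). Hes1 is best known as a target of Notch. Atoh8 fell with VPA (by 0.69, adjusted p = 0.03531). Msx1, a homeobox gene, rose with both compounds (0.63, adjusted p = 0.04553), a call held in 11 of 20 alternatives. Hey1 was well above background on 0 of 2 control arrays and on both arrays with both compounds, and it entered the test through the groups where it is high. Its fitted difference of 0.68 with both compounds is given as a description, although it stands among the 7 that rose. The E proteins that the Id proteins bind gave no call: Tcf3 differed by -0.36 with VPA (adjusted p = 0.1722), Tcf12 by -0.36 with both compounds (adjusted p = 0.1713) and Tcf4 by -0.06 with both.

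**Figure D4:**
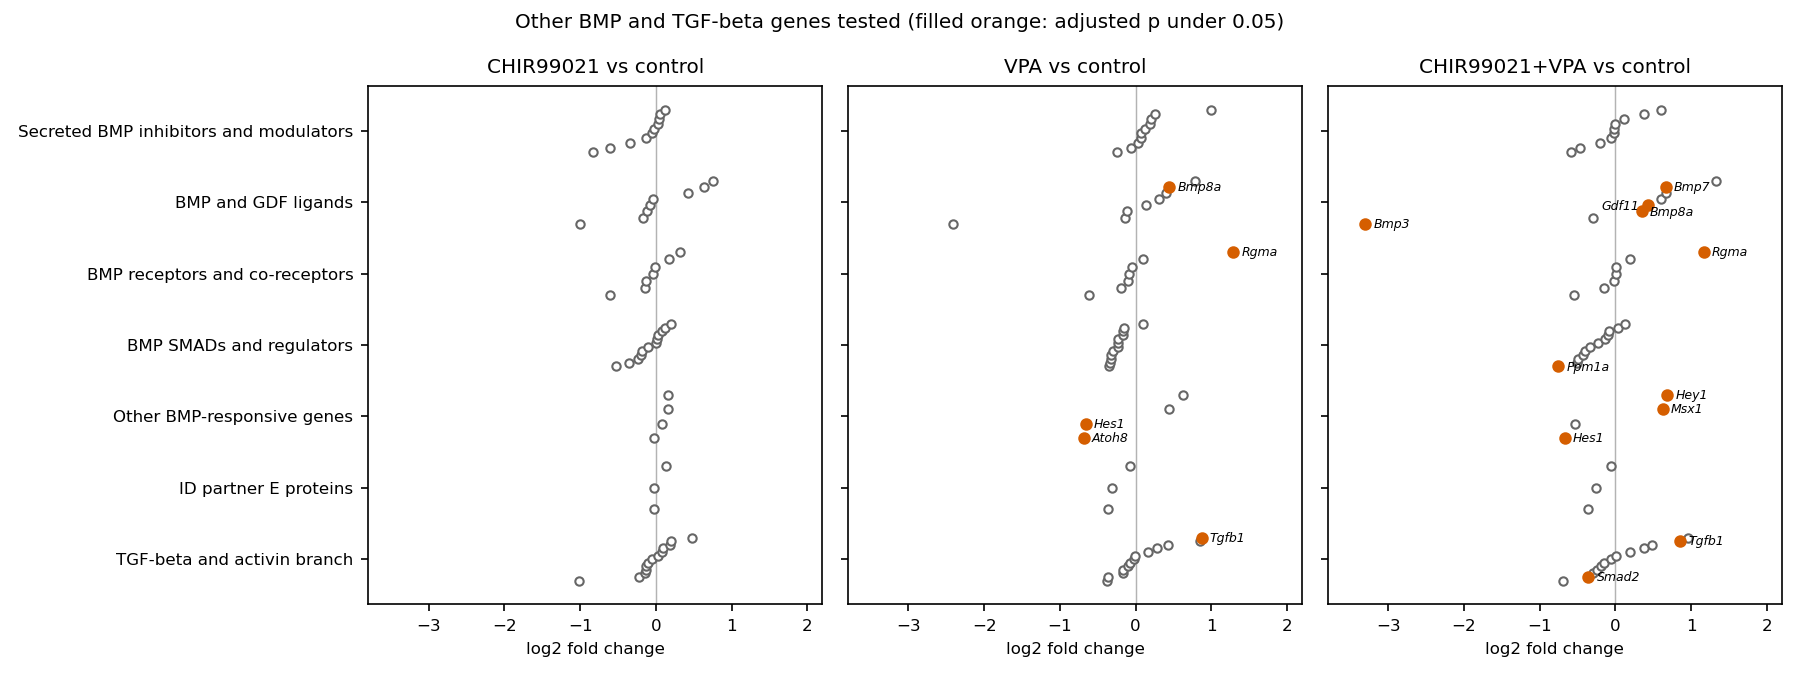
Log2 fold change of the 57 tested genes of 7 lists in the 3 comparisons with control, with an adjusted p under 0.05 in filled orange and named. No gene is filled with CHIR99021, 5 are with VPA and 11 with both compounds, and Bmp3 at -3.31 and Rgma at 1.17 lie farthest out among those filled with both compounds.

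Likeness to the called members was measured as Pearson's r of the log2 ratios over the 8 arrays, against 13474 named genes. The genes most like Id2 were Cyba (r = 0.99), Gemin5 (r = 0.99) and Csnk1e (r = 0.98). Those most like Smad6 were Usp45 (r = 0.98), Bcr (r = 0.97) and Ddhd1 (r = 0.97). The values are a description of 8 arrays, and the 4 arrays of a line share their slide and the line's control RNA.

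**Figure D5:**
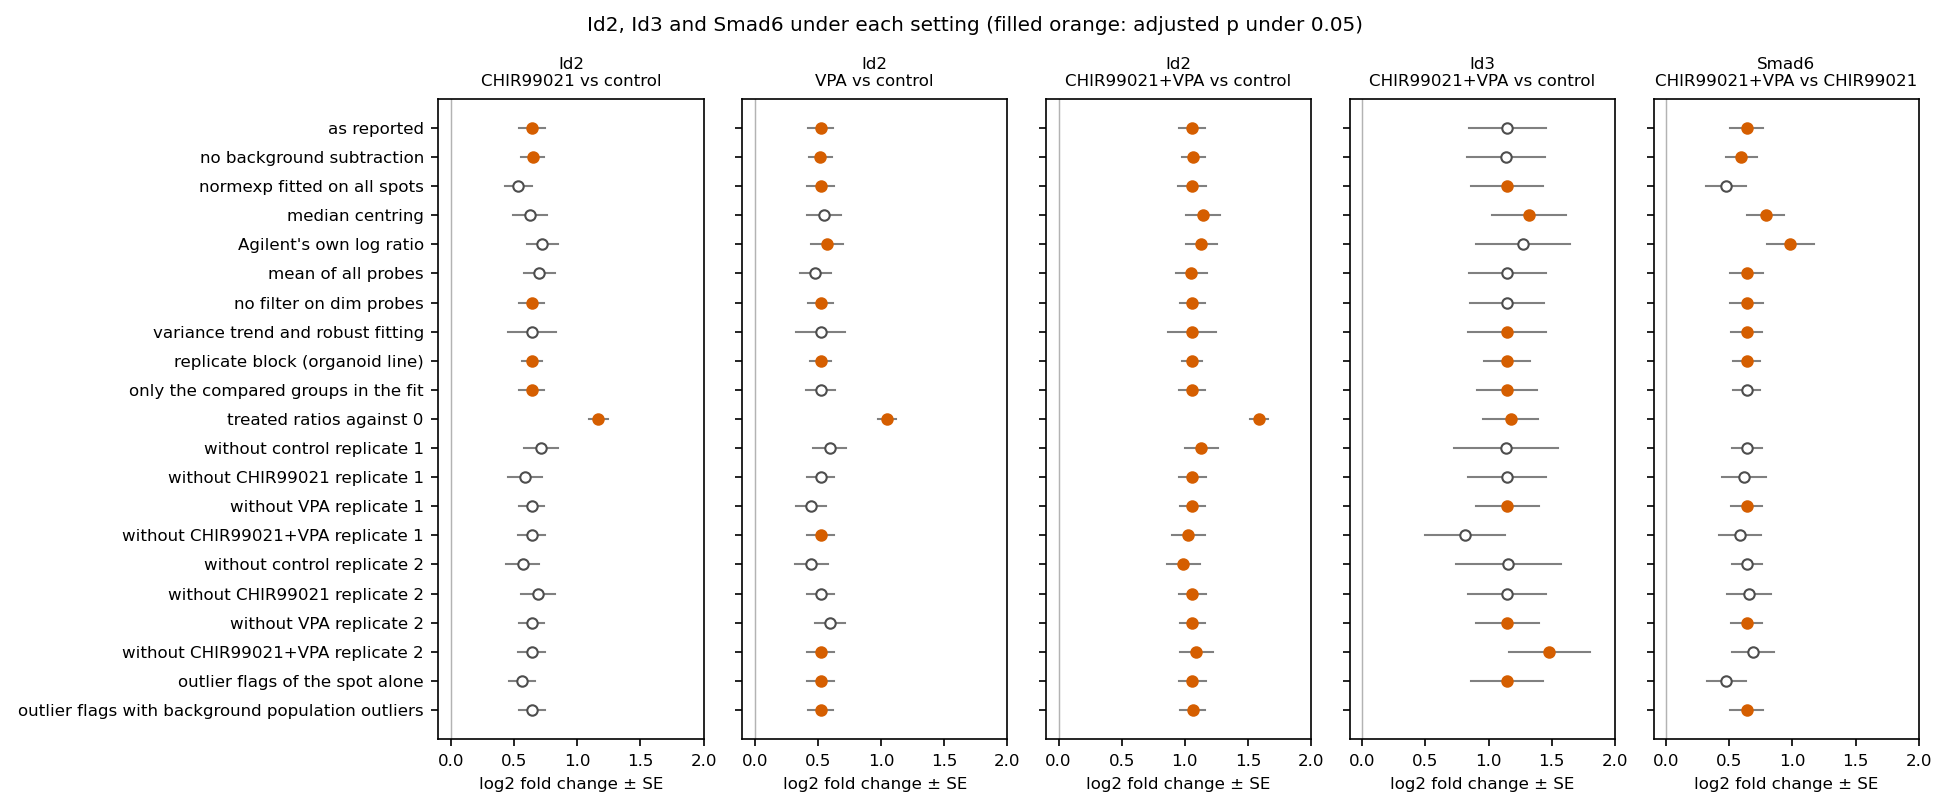
Log2 fold change (point) and SE (bar) of Id2, Id3 and Smad6 as reported and under each alternative setting, with an adjusted p under 0.05 in filled orange. Id2 with both compounds is filled in every setting, while Id2 with CHIR99021 passed in 5 of 20 alternatives and Id3 with both compounds in 10 of 19.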

How the data were processed

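RNA of 8 organoid samples was hybridised to two-colour Agilent whole mouse genome arrays of 45018 spots, with the sample in Cy5 and control RNA of the same line in Cy3, per the labels. Per the file headers, the scans were read with Feature Extraction 10.5.1.1 from Agilent. The deposited intensity values are linear medians of pixel brightness, for the spot and for the background around it, without subtraction. Medians were used although mean signals had been planned. The deposited log10 ratio is Cy5 over Cy3 after the software's own background subtraction and dye normalisation, per the file headers. The flags per spot (well above background, saturated, outlier) are the software's, per the file headers. The authors' series table holds log2 ratios that equal the software's ratio within 5e-10 at 19228 spots, which settles direction and scale. It gave a value for 24 of the 40 member spots and is covered by the alternative with the software's ratio.

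In R 4.3.3 with limma 3.58.1, background was corrected with normexp (offset 50) and within-array loess was applied to the ratios, giving the 1639 control spots no weight. Spots marked as outliers in the spot or for an uneven background, 162 to 328 per array, were left out, also when normexp was fitted. This handling was chosen after a fit on all spots had been seen to call no gene for CHIR99021, so both other choices of marked spots are given as alternatives chosen after seeing the data. Repeat spots were averaged per probe, and the brightest probe stands for its gene. Probes were named by RefSeq accession, with 27479 of 41174 probes matched. The headers name build mm9, from which no coordinates were used. A gene was tested where Cy5 was well above background on both arrays of 1 group or more, except for 79 that lost a value to a marked spot, which left 19255, of which 13975 have a symbol. All 9 members passed, 5 with 1 probe and 4 with 2.

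The 4 groups were fitted together with lmFit and eBayes on the log2 ratios (4 residual and 2.683 prior degrees of freedom), and p-values were adjusted by Benjamini-Hochberg over all genes tested, with a threshold of 0.05. The procedure was tested on simulated data whose errors were independent between arrays, so that test does not cover deviations shared within a line. Per the labels, replicate numbers name organoid lines, and each slide holds 1 line, so line and slide cannot be told apart. Deviations from the group means were shared within a line (r of 0.122 to 0.755 over genes for the 6 pairs of groups). The p-values rest on the spread between 2 lines, and the small number of arrays limits the precision. Named genes were the 9 members, up to 3 called genes per pathway list and comparison with control with the smallest adjusted p, all E proteins and Id4, and the 3 genes most like each called member. Members, lists and tests were chosen with earlier results of these data known.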

Additional observations from a re-analysis of the deposited data

How the results depend on the processing

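With line as a replicate block, the count of members called was 1 for CHIR99021, 4 for VPA (Bmpr1a, Smad6, Id2, Id3), 3 for both compounds (Id1, Id2, Id3), 4 for both compounds against CHIR99021 alone (Smad6, Id1, Id2, Id3) and 1 for both against VPA alone (Id2). The counts as reported are 1, 1, 1, 2 and 0 in that order, and 0 for the interaction. Over all genes the calls as reported were 216, 2090, 2989, 1930 and 215 of 19255. Without background subtraction the member counts were the same, where 234, 2236, 3272, 2178 and 234 of all genes were called. The normexp fit on all spots gave 0, 1, 2, 1 and 0, where 0, 1513, 2413, 1630 and 28 of all genes were called. The outlier flags of the spot alone gave the same member counts, where 1, 1565, 2497, 1662 and 29 of 19271 genes were called. Adding background population outliers to the flags gave 0, 1, 1, 2 and 0, with no value for Id3 and Bmpr1a. There 155, 1835, 2569, 1696 and 161 of 16062 genes were called. Median centring gave 0, 0, 2, 1 and 0, where 164, 1129, 2132, 1155 and 150 of all genes were called. The variance trend with robust fitting gave the same member counts, where 85, 1948, 2935, 1799 and 202 of all genes were called. The software's own ratio gave 0, 1, 1, 1 and 0, where 36, 1521, 2529, 1336 and 34 of all genes were called. The mean of all probes gave 0, 0, 1, 1 and 0, where 200, 1990, 2867, 1806 and 234 of 19323 genes were called. Testing without a filter on dim probes gave 1, 1, 1, 1 and 0, where 217, 1859, 2666, 1694 and 225 of 32003 genes were called. With only the compared groups in the fit the member counts were 2 (Id2 higher, Bmp2 lower), 0, 2, 0 and 0. There 1084, 1575, 2287, 290 and 0 of all genes were called. With treated ratios set against 0 the member counts were 2, 5 and 5, where 22.4%, 36.5% and 40.5% of all genes were called. Leaving out 1 array left 1 array in its group, so counts of members called are not given for those fits. Without either control array, fewer of all genes were called as well in each comparison between groups. Id2 with both compounds was called in all 20 alternatives. Values near 0 turned sign. Without background subtraction these were Bmp4 with CHIR99021 (-0.0044), Bmp2 for both against CHIR99021 (-0.0081) and the Bambi interaction (0.0021). With normexp on all spots they were Bmp4 (-0.0014) and Id3 (-0.0087) with CHIR99021, Bmp2 (-0.19) and Bmpr1a (-0.075) for both against CHIR99021 and the Id2 interaction (0.0040). With the flags of the spot alone they were Bmp4 (-0.0013), Bmp2 (-0.18) and Bmpr1a (-0.077) in the same comparisons. With the software's ratio they were Bmp2 (-0.24) and the Bambi interaction (0.041), and with median centring the Bambi interaction (0.023). With the mean of all probes they were Bmpr1a with both compounds (-0.00087) and for both against CHIR99021 (-0.0092), Id1 for both against VPA (-0.0072) and the Bambi interaction (0.046). Leaving out 1 array moved these uncalled values across 0: with CHIR99021 Bmp4 (-0.024 to 0.043), Bambi (-0.026 to 0.28), Id1 (-0.36 to 0.050) and Id3 (-0.12 to 0.32), and with both compounds Bmp4 (-0.020 to 0.60). For both against CHIR99021 they were Bmp2 (-0.30 to 0.33), Bmp4 (-0.030 to 0.59), Bmpr1a (-0.024 to 0.092) and Smad7 (-0.16 to 0.065). For both against VPA they were Bmp2 (-0.38 to 0.25), Bmp4 (-0.56 to 0.22), Bambi (-0.11 to 0.35) and Id1 (-0.19 to 0.34). For the interaction they were Bmp4 (-0.56 to 0.21), Bambi (-0.24 to 0.23), Smad7 (-0.029 to 0.20), Id1 (-0.034 to 0.49) and Id3 (-0.075 to 0.65). The causes were not tested.

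Over all genes, CHIR99021 gave 216 calls as reported, 0 with normexp on all spots and 1 with the flags of the spot alone. Median centring moved the share of higher genes among calls to 76.7% for VPA and 65.2% for both compounds, against 60.6% and 54.3% as reported. Dim members such as Bmp2 and Bmp4 are limited by signal over background.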

Other observations

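The Cy3 channel held control RNA of one line on 4 arrays, so it gives the untreated level of each member per line, as log2 brightness of 1 probe. Bambi stood at 8.97 ± 0.053 in line 1 and 7.32 ± 0.085 in line 2 (SD, n = 4 arrays each), a difference of 1.65, and 1.28% of all genes tested differed between the lines by as much or more. Id3 stood at 8.47 ± 0.073 in line 1 and 7.92 ± 0.16 in line 2, a difference of 0.55 that 12.1% of genes reached. Id2 differed by 0.32 and Smad6 by -0.39, which 27.9% and 21.6% of genes reached. The 4 arrays of a line share 1 slide and the same control RNA, so line, slide and RNA cannot be told apart.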
